A study of Mus musculus with 8 samples.

Results

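The receptor chains of the interleukin-17 (IL-17) family, the receptor chains of the IL-20 subfamily and the adaptors Act1 (gene Traf3ip2) and TRAF6 (Traf6) were followed in mouse skin treated with shikonin, a naphthoquinone from the roots of Lithospermum. The set holds 10 genes, chosen by name: Il17ra, Il17rb, Il17rc, Il17rd, Il17re, Il20ra, Il20rb, Il22ra1, Traf3ip2 and Traf6. A gene counted as measured where a probe annotated with its symbol, or an older or newer synonym of it, had an intensity on all 8 arrays. That left 6 genes with 8 probes, among 9987 named genes and 13853 measured probes of the 29922 on the array. Il17rd (2 probes), Il20ra (1 probe) and Il22ra1 (1 probe) were blank on all 8 arrays, and no probe carried the symbol or a synonym of Il20rb. No level can therefore be given for any of the 3 IL-20 subfamily chains of the set, and a blank is not a measurement of absence.

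IL-17 receptors are pairs of transmembrane chains. IL-17RA is the shared chain: with IL-17RC it binds IL-17A and IL-17F, with IL-17RB it binds IL-25, and with IL-17RE it binds IL-17C. The chains carry a SEFIR domain that recruits Act1, which brings in TRAF6 and so reaches the NF-kB and MAP kinase pathways, and in keratinocytes these induce chemokines, antimicrobial proteins and feedback inhibitors. The IL-20 subfamily (IL-19, IL-20, IL-22 and IL-24) signals through other pairs, made from IL-20RA, IL-20RB, IL-22RA1 and IL-10RB, and through JAK kinases and STAT3.

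The abdominal skin of female C57BL/6JNarl mice aged 6 to 8 weeks, with no genetic change stated, received 100 μL of acetone alone, the solvent control, or 100 μL of acetone with shikonin at 10 μg/μL. Mice were sacrificed and skin was collected after 4 h or 24 h, which gave, for either treatment, a 4 h group and a 24 h group, each with 2 arrays. The methods describe duplicate samples, each on its own chip, and independent experiments, while neither they nor the labels tie replicate arrays to separate animals. The p-values therefore reflect only how far replicate arrays lay apart, and part of that spread may be technical. Each array holds the Cy5 intensity of whole skin, in which fewer cells of a type and less RNA per cell cannot be told apart.

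The 8 arrays had medians of 1128.8 to 1130.4, and replicate arrays correlated at 0.986 to 0.992 across probes. All 15 interfollicular keratinocyte markers searched for were measured, as the skin label requires, and none of them lay at the floor on all arrays. The floor is an intensity of 203.4, the level at 5% of all values, and lower values were set to it ahead of the log2 step. Where both dimmer arrays were at this floor, or a bright one was saturated, the fold is a lower bound and is written with "at least". Groups were compared with limma on log2 intensity, with Benjamini-Hochberg adjustment over all 13853 probes and a threshold of 0.05. Genes are said to have risen or fallen only where they passed it. No probe's intensity is set against that of another probe. Marker lists alone are also given as sums of intensity over their probes, which bright probes dominate, with the sum over probes saturated on no array beside them; the latter was added after seeing the data.

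At 4 h, 1 of the 6 measured genes rose (Il17ra) and 3 fell (Il17rc, Il17re and Traf3ip2). Over all named genes 20.4% rose and 26.5% fell at 4 h. At 24 h the same gene rose and 4 fell, these 3 and Il17rb, where 28.3% of all named genes rose and 33.7% fell. Traf6 passed at neither time by its brighter probe. The median log2 change over the 6 genes was -0.29 at 4 h and -0.66 at 24 h, beside -0.07 and -0.05 over all named genes. At 4 h the median falls between Traf3ip2 (-0.57) and Il17rb (-0.01), and the floor fixed the Il17rb value near 0. At 24 h it falls between Il17rb (-0.68, a bound) and Traf3ip2 (-0.64). The step from -0.29 to -0.66 therefore depends on the floor. With the floor applied, shikonin and acetone arrays did not overlap for 5 of the 6 genes at 4 h, as for 74.0% of named genes. At 24 h this held for all 6, as for 79.9%. The gene that overlapped at 4 h was Il17rb, and it did so only through the floor. Its deposited intensities were 206.6 and 202.2 in acetone skin and 86.9 and 108.9 in shikonin skin.

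**Figure D1:**
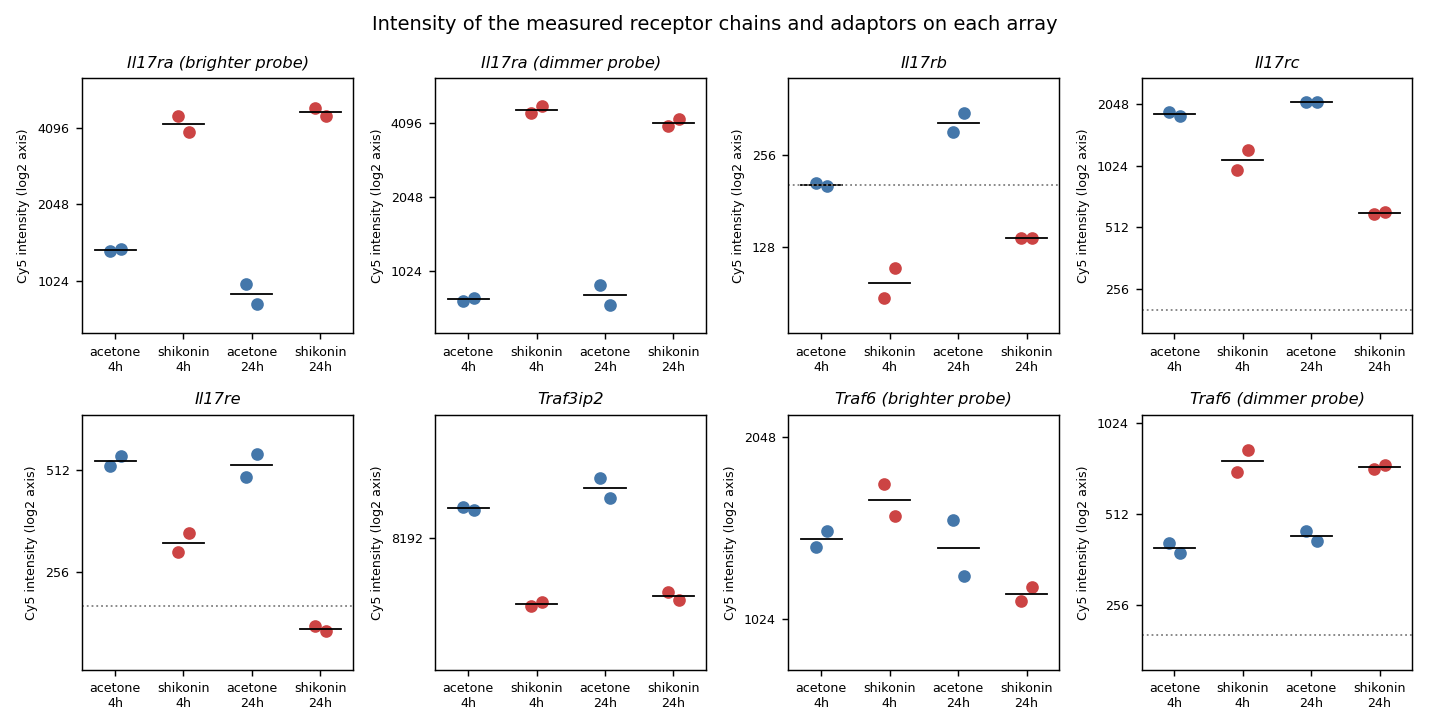
Cy5 intensity (log2 axis, a different range in each panel) of the 8 measured probes in the 4 groups; each point is 1 array, black lines are group means on the log2 scale, and the dotted line is the floor of 203.4, drawn where it falls within the panel. Both Il17ra probes are high on all 4 shikonin arrays, Il17rc, Il17re and Traf3ip2 are lower on all 4, Il17rb lies near or under the floor except in acetone skin at 24 h, and the Traf6 probes differ from each other.

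Il17ra, the chain shared by the receptors of the family, was the gene that rose by the brightest probes. Its brighter probe read 1343 and 1364 on the acetone 4 h arrays, 4556 and 3940 on the shikonin 4 h arrays, 999.7 and 833.4 on the acetone 24 h arrays, and 4907 and 4531 on the shikonin 24 h arrays. All 4 shikonin arrays lay above all 4 acetone arrays. The rise over acetone was 3.13-fold at 4 h (log2 1.65, SE 0.14, adjusted p = 1.85e-05) and 5.17-fold at 24 h (log2 2.37, SE 0.14, adjusted p = 6.33e-07). Only 3.38% of the 9987 named genes had a higher log2 change at 4 h, and 3.32% at 24 h.

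The second Il17ra probe also separated the treatments. It read 775.8 and 797.7 in acetone skin at 4 h, 4519 and 4798 in shikonin skin at 4 h, 902.9 and 745.8 in acetone skin at 24 h, and 4009 and 4246 in shikonin skin at 24 h. By this probe Il17ra rose 5.92-fold at 4 h (log2 2.57, SE 0.13, adjusted p = 1.06e-06) and 5.03-fold at 24 h (log2 2.33, SE 0.13, adjusted p = 5.80e-07). Both probes thus place Il17ra higher in shikonin skin at both times, and the size at 4 h depends on the probe.

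Whether the rise was larger at 24 h also depends on the probe. On the log2 scale, the groups of the brighter probe stood in the order acetone 24 h (9.83 ± 0.19, SD, n = 2), acetone 4 h (10.40 ± 0.02), shikonin 4 h (12.05 ± 0.15) and shikonin 24 h (12.20 ± 0.08), and the intensities of the last pair overlapped. The effect of shikonin by this probe was 0.72 larger at 24 h on the log2 scale (SE 0.20, adjusted p = 0.0159). The shikonin groups differed by 0.15 (adjusted p = 0.390), and the acetone level was lower at 24 h than at 4 h by -0.57 (SE 0.14, adjusted p = 0.0160). The second probe gave a difference of -0.24 between the times (SE 0.19, adjusted p = 0.351) and 0.06 between the acetone groups (adjusted p = 0.769). The adjusted p of the difference by the brighter probe was 0.0543 and 0.0591 without acetone 4 h replicate 1 or 2, and 0.0674 without shikonin 24 h replicate 1. That of the acetone fall was 0.0845 and 0.0959 without acetone 4 h replicate 1 or 2, and 0.0651 without acetone 24 h replicate 2.

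Markers of neutrophils, which carry IL-17RA as other leukocytes do, moved the same way as Il17ra. The counts below stand beside 20.4% higher and 26.5% lower of all named genes at 4 h, and 28.3% and 33.7% at 24 h. Of 16 neutrophil markers 12 were measured, with 10 higher and 0 lower at 4 h, then 11 higher and 1 lower at 24 h, and none was at the floor on all arrays. Their summed intensity was 76793 to 85151 in acetone skin at 4 h, 254461 to 263175 in shikonin skin at 4 h, 16172 to 17117 in acetone skin at 24 h and 265273 to 266845 in shikonin skin at 24 h. Without S100a8 and Retnlg, the 2 saturated probes, the sums in the same order were 16222 to 18024, 130327 to 132212, 7830 to 8089 and 135983 to 138137, with the groups in the same order. Monocyte and macrophage markers (13 of 16 measured) had 3 higher and 6 lower at 4 h, then 8 higher and 1 lower at 24 h. Their sums were 123090 to 123488, 147932 to 149161, 97670 to 98480 and 213742 to 215739, where the higher shikonin sum at 4 h came from the saturated Cd14 probe alone. Without Cd14 the sums were 117125 to 117665, 83813 to 87467, 95011 to 95891 and 149981 to 150259, so this list was lower in shikonin skin at 4 h and higher at 24 h. The part of these cells in the Il17ra values was not tested.

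Il17rc and Il17re, the chains that pair with IL-17RA for IL-17A and IL-17F and for IL-17C, fell together. The Il17rc probe read 1868 and 1797 in acetone skin and 976.9 and 1221 in shikonin skin at 4 h, then 2097 and 2096 in acetone skin and 594.1 and 610.8 in shikonin skin at 24 h. Every shikonin array was below every acetone array, and the shikonin 24 h arrays were the lowest. Il17rc was 1.68-fold lower at 4 h (log2 -0.75, SE 0.15, adjusted p = 0.00267) and 3.48-fold lower at 24 h (log2 -1.80, SE 0.15, adjusted p = 5.24e-06), and at 24 h only 6.4% of named genes had a lower log2 change. The fall was larger at 24 h by -1.05 on the log2 scale (SE 0.21, adjusted p = 0.00318).

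The order of the Il17rc group levels on the log2 scale was shikonin 24 h (9.23 ± 0.03, SD, n = 2), shikonin 4 h (10.09 ± 0.23), acetone 4 h (10.84 ± 0.04) and acetone 24 h (11.03 ± 0.00). The shikonin groups differed from each other (-0.86, SE 0.15, adjusted p = 0.00117). The acetone groups differed by 0.19 (SE 0.15, adjusted p = 0.338), which did not pass. The test thus called a step between the shikonin groups and did not call one between the controls.

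The Il17re probe was dimmer. Acetone arrays at 4 h read 527.6 and 565.9 and shikonin arrays 293.4 and 333.5, and at 24 h acetone arrays read 488.5 and 574.7 and shikonin arrays 176.7 and 170.5. Again no shikonin array reached an acetone array, and both shikonin 24 h arrays were under the floor. Il17re was 1.75-fold lower at 4 h (log2 -0.80, SE 0.15, adjusted p = 0.00203) and at least 2.61-fold lower at 24 h (adjusted p = 3.78e-05). The acetone groups overlapped (difference -0.04, adjusted p = 0.858), and the shikonin level fell between the times by at least 1.54-fold (adjusted p = 0.00784). The difference of the effects between the times was -0.58 with the floor (SE 0.21, adjusted p = 0.0525), which missed the threshold, and -0.81 without it (adjusted p = 0.0258). It also passed without shikonin 4 h replicate 1 (-0.67, adjusted p = 0.0412) or acetone 24 h replicate 1 (-0.69, adjusted p = 0.0424). With the floor raised to the level at 25% of all values, Il17re passed at neither time (adjusted p = 0.0673 and 0.0874).

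Over the 8 arrays, log2 values of Il17rc and Il17re had a Pearson correlation of 0.98, while those of Il17ra correlated with Il17rc at -0.92 and with Il17re at -0.92. These correlations are over arrays that share their treatment, and are given as descriptions. Both shikonin 24 h arrays of Il17re enter them at the floor. In RefSeq gene order (GRCm38.p6), Il17re and Il17rc are direct neighbours on chromosome 6. Their promoters, 250 bases before to 50 bases after each gene's start from RefSeq, are shown because these adjoining genes moved together. Capitals mark the match to a searched motif.
Il17re promoter, GRCm38.p6 chr6:113458521-113458820, plus strand: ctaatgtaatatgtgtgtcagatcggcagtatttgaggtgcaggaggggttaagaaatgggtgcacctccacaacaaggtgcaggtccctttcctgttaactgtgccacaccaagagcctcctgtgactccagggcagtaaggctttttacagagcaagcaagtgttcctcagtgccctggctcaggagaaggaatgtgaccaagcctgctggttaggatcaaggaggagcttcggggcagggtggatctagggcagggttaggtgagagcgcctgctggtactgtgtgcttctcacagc
Il17rc promoter, GRCm38.p6 chr6:113471205-113471504, plus strand: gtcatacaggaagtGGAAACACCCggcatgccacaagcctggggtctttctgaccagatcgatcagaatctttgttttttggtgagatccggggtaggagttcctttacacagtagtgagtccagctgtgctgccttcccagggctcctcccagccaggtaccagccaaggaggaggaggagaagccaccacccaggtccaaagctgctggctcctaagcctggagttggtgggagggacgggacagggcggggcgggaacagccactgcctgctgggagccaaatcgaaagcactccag
The motifs searched, on both strands, were STAT (TTCNNNGAA, in 8.3% of all 32851 promoters of this length), AP-1 (TGANTCA, 7.81%), C/EBP (TTGCNNAA, 10.8%) and the decamer of NF-kB (1.63%). The Il17rc window holds 1 NF-kB match, GGAAACACCC, which begins at base -236 from the start and reads on the opposite strand, and the Il17re window holds none of the 4 motifs. The windows have 7 CpG sites in Il17rc and 3 in Il17re, beside a median of 7 over all promoters, and a GC content of 58.7% and 53.7%, beside a median of 52.7%. Of the other measured genes, Il17rb and Traf6 are in the promoter table. The Il17rb window holds 1 AP-1 match, TGAGTCA at base -104, and the Traf6 window holds no match.

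The genes beside the pair did not share its pattern at both times. These neighbours were looked at after the values of the pair were known. Before Il17re stand Rpusd3, Cidec and Jagn1, and after Il17rc stand Creld1, Prrt3 (not measured) and Emc3. Rpusd3 changed by -0.34 and 0.12 and Creld1 by -0.25 and 0.29 on the log2 scale at 4 h and 24 h, and neither passed at either time. Jagn1 gave 0.03 at 4 h and fell at 24 h (-0.38, adjusted p = 0.0304), and Emc3 gave 0.24 at 4 h and fell at 24 h (-0.40, adjusted p = 0.0366). Cidec, which encodes a lipid droplet protein of fat cells, rose at 4 h (0.34, adjusted p = 0.0118) and fell at 24 h (-2.56, adjusted p = 2.37e-08).

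**Figure D2:**
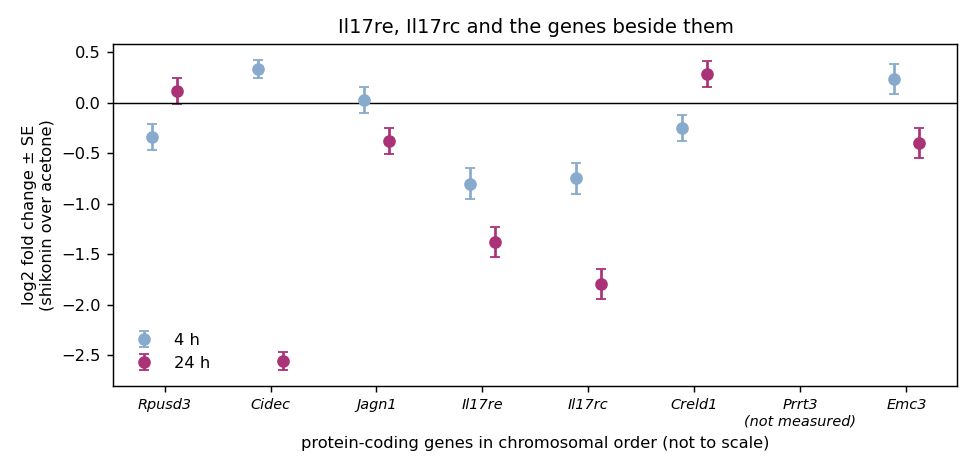
Log2 fold change of shikonin over acetone (± SE of the fit) at 4 h and 24 h for Il17re, Il17rc and the protein-coding genes beside them on chromosome 6, in chromosomal order and not to scale. Il17re and Il17rc are below 0 at both times, at -0.80 and -0.75 at 4 h, and the Il17re value at 24 h is a bound because its shikonin arrays lay under the floor.

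Several marker lists had lower sums on the arrays on which Il17rc and Il17re were lower. For the counts that follow, the shares of all named genes were 20.4% higher and 26.5% lower at 4 h, then 28.3% and 33.7% at 24 h. Of 15 interfollicular keratinocyte markers, all measured, 1 rose and 8 fell at 4 h, and 13 fell at 24 h, with median log2 changes of -0.47 and -2.08. Their summed intensity was 326999 to 338194 in acetone skin at 4 h, 246367 to 258840 in shikonin skin at 4 h, 331251 to 337708 in acetone skin at 24 h and 115991 to 118938 in shikonin skin at 24 h, and without 3 saturated probes (Dsp, Krt10 and Krt14) 137194 to 147319, 111740 to 121434, 135175 to 141270 and 33648 to 37758. Of 12 fibroblast markers, all measured, 7 fell at 4 h, then 2 rose and 5 fell at 24 h, with median log2 changes of -0.68 and -0.21. The fibroblast median was thus nearer 0 at 24 h than at 4 h. They summed to 345336 to 353282, 267727 to 269028, 341221 to 363730 and 276939 to 277617 in that order of groups. Without 3 saturated probes (Col3a1, Dcn and Vim) the fibroblast sums were 156839 to 157511, 83013 to 85361, 144892 to 167277 and 85777 to 89789.

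Of the other lists, skeletal muscle and T cell markers also had lower sums in shikonin skin at both times, and the rest had courses of their own. Beside them, 20.4% of all named genes rose and 26.5% fell at 4 h, then 28.3% and 33.7% at 24 h. Hair follicle markers, 12 of 15 measured, went against the chains at 4 h, with 11 higher and 1 lower (median 4.08), and had 1 higher and 7 lower at 24 h (median -0.75). Their sums were 11436 to 11866, 175089 to 181616, 11044 to 11810 and 4905 to 5732, and none of these probes was saturated. Skeletal muscle markers, 9 of 10 measured, were all lower at 4 h (median -0.77), with 1 higher and 6 lower at 24 h (median -0.66), and summed to 230877 to 233973, 126180 to 131925, 218245 to 224614 and 136964 to 152948. Without the saturated Mylpf probe the muscle sums were 165394 to 173508, 94231 to 94728, 153830 to 160732 and 96868 to 109031. Adipocyte markers, 8 of 9 measured, had 3 higher and 2 lower at 4 h (median -0.01) and 7 lower at 24 h (median -1.51), with sums of 143712 to 146317, 134494 to 145364, 170455 to 172124 and 79625 to 81264. Without the saturated Cfd probe the adipocyte sums were 78232 to 80837, 70264 to 79884, 104977 to 107648 and 26541 to 27722. T cell markers, 8 of 13 measured, had 2 higher and 3 lower at 4 h and again at 24 h. Their sums, mostly from the Thy1 probe, were 17435 to 17478, 13633 to 14590, 17153 to 19220 and 12445 to 14501. Endothelial markers, 8 of 9 measured, had 1 higher and 4 lower at 4 h, then 4 higher and 2 lower at 24 h. Their sums were 15668 to 16129, 14278 to 14798, 16985 to 18795 and 28065 to 28940. The part of any of these cell types in the fall of Il17rc and Il17re was not tested.

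Il17rb, the chain that binds IL-25 and IL-17B, was at the lower end of the measurable range. It read 206.6 and 202.2 in acetone skin and 86.9 and 108.9 in shikonin skin at 4 h, and 304.4 and 350.0 in acetone skin and 137.0 and 137.1 in shikonin skin at 24 h. Only the acetone 24 h arrays stood clearly above the floor of 203.4, and all 4 shikonin arrays were under it. At 4 h no fold is given, since both groups lay about at or under the floor. At 24 h Il17rb was at least 1.60-fold lower in shikonin skin (adjusted p = 0.00155).

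Acetone skin itself had more Il17rb signal at 24 h than at 4 h (log2 0.67, SE 0.13, adjusted p = 0.00649, with 1 of the acetone 4 h arrays at the floor). Set against the acetone 4 h arrays, the shikonin 24 h change was -0.01 (adjusted p = 0.947), a value that the floor fixed near 0. Both shikonin 24 h arrays and acetone 4 h replicate 2 lay under the floor, and acetone 4 h replicate 1 read 206.6. This comparison therefore cannot tell a change from none. With the floor, the effects of the times differed by -0.67 (SE 0.19, adjusted p = 0.0172). Without it, Il17rb was lower in shikonin skin at 4 h (log2 -1.07, adjusted p = 0.00269) as well as at 24 h (-1.25, adjusted p = 6.35e-04), and the times differed by -0.18 (adjusted p = 0.675). The values under the floor have no order that can be relied on.

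Traf3ip2, which encodes the adaptor Act1, fell by about the same amount at both times. Its probe read 9312 and 9213 in acetone skin and 6171 and 6295 in shikonin skin at 4 h, and 10486 and 9673 in acetone skin and 6562 and 6329 in shikonin skin at 24 h. All 4 shikonin arrays were below all 4 acetone arrays, and replicates lay close together. The fall was 1.49-fold at 4 h (log2 -0.57, SE 0.09, adjusted p = 9.53e-04) and 1.56-fold at 24 h (log2 -0.64, SE 0.09, adjusted p = 2.54e-04). The 2 effects differed by -0.07 (95% interval -0.37 to 0.22), so a difference within that interval cannot be told from none.

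Group levels of Traf3ip2 on the log2 scale were 12.61 ± 0.02 (shikonin 4 h), 12.65 ± 0.04 (shikonin 24 h), 13.18 ± 0.01 (acetone 4 h) and 13.30 ± 0.08 (acetone 24 h; SD, n = 2 each). Neither the shikonin groups (0.05, adjusted p = 0.703) nor the acetone groups (0.12, adjusted p = 0.352) differed between the times by the test. Il17ra and Traf3ip2 mirrored each other over the 8 arrays, with a Pearson correlation of -0.98.

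Traf6, a ubiquitin ligase that joins IL-17 receptor and Toll-like receptor signals to NF-kB, gave different answers by its 2 measured probes, and its remaining annotated probe was blank. The brighter probe read 1345 and 1434 in acetone skin and 1715 and 1516 in shikonin skin at 4 h, and 1496 and 1207 in acetone skin and 1096 and 1156 in shikonin skin at 24 h. The shikonin arrays were the higher at 4 h and the lower at 24 h, by margins close to the replicate spread. The log2 changes were 0.22 at 4 h (95% interval -0.12 to 0.56, adjusted p = 0.275) and -0.25 at 24 h (-0.60 to 0.09, adjusted p = 0.171). The effects of the times differed by -0.47 (adjusted p = 0.105), or by -0.62 without acetone 24 h replicate 2 (adjusted p = 0.0448). Between the shikonin groups the level fell from 4 h to 24 h (-0.52, SE 0.15, adjusted p = 0.0192).

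The dimmer Traf6 probe read 411.2 and 381.7 in acetone skin and 707.0 and 836.9 in shikonin skin at 4 h, and 449.9 and 416.1 in acetone skin and 722.8 and 743.4 in shikonin skin at 24 h. Here no shikonin array overlapped an acetone array. By this probe Traf6 was 1.94-fold higher at 4 h (adjusted p = 7.53e-04) and 1.69-fold higher at 24 h (adjusted p = 0.00175), and the shikonin groups differed by -0.07 (adjusted p = 0.735). No direction can be given for Traf6 as a gene. The fall between the shikonin groups by the brighter probe also missed the threshold without shikonin 4 h replicate 1 (adjusted p = 0.0848), shikonin 24 h replicate 1 (0.103) or shikonin 24 h replicate 2 (0.0681).

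**Figure D3:**
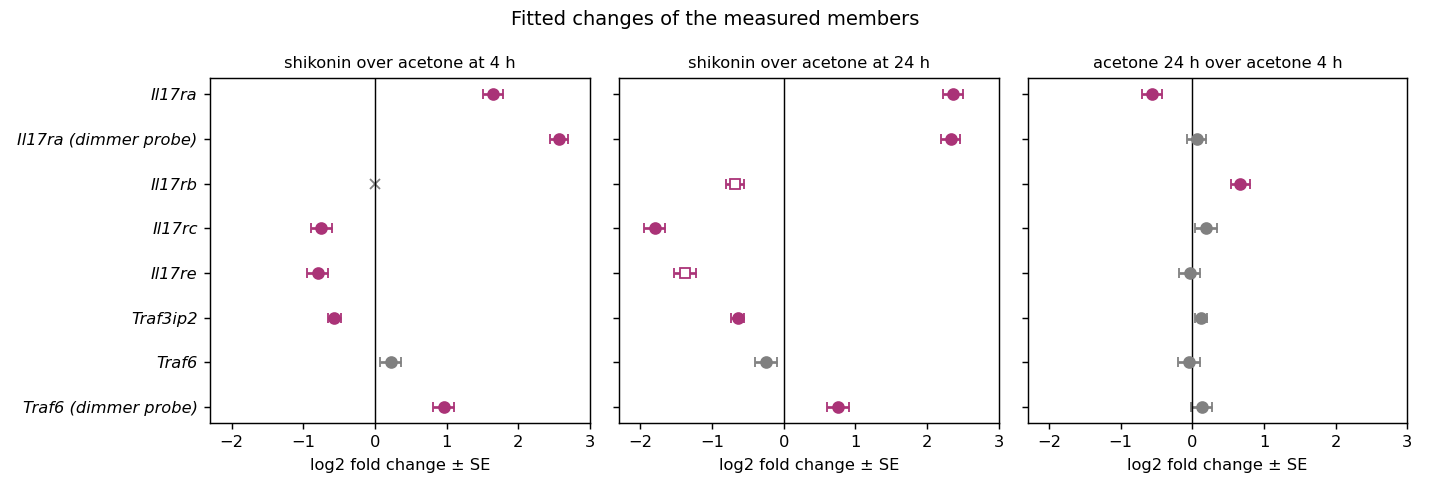
Log2 fold change (± SE of the fit) of each measured probe in 3 comparisons, shikonin with acetone at 4 h, shikonin with acetone at 24 h, and acetone 24 h with acetone 4 h. Filled purple points passed the adjusted p threshold of 0.05, grey points did not, open squares are lower bounds, and the cross marks Il17rb at 4 h, where no fold is given; Il17ra is to the right of 0 by both probes in both shikonin panels.

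Between the controls, 1 of the 6 genes was higher at 24 h (Il17rb) and 1 lower (Il17ra, by its brighter probe), beside 15.8% and 14.6% of all named genes. These arrays are also the controls of the comparisons above. The acetone groups did not overlap for 4 of the 6 genes, as for 69.0% of named genes. From 4 h to 24 h in shikonin skin, 0 of the 6 rose and 3 fell (Il17rc, Il17re and Traf6), beside 24.8% and 24.3% of named genes. With the floor applied, the shikonin groups did not overlap for 4, as for 74.3%. Il17rb counts as overlapping there only because all its shikonin arrays were set to the floor. In the difference of effects 1 gene was higher (Il17ra) and 2 lower (Il17rb and Il17rc), beside 21.7% and 22.8% of named genes.

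The study asked for a change of at least 2-fold in independent experiments, counted here as 2-fold the same way in both pairs of arrays that carry the same replicate number. By this count Il17ra was higher at both times. At 4 h no gene of the set was counted lower, and 6.55% of named genes were counted higher and 5.19% lower. At 24 h 2 genes were counted lower, Il17rc and Il17re, where 12.4% of named genes were counted higher and 13.0% lower. Traf3ip2, which the model called at 24 h, changed by less than this. Il17rb, also called at 24 h, was not counted because the floor was applied first, and its 1.60-fold is a lower bound. Its deposited acetone and shikonin intensities were 304.4 and 137.0 for replicate 1, and 350.0 and 137.1 for replicate 2. Whether it met the criterion therefore depends on the floor.

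For each gene, the 3 genes with the most similar course over the 8 arrays were taken from 5489 genes of at least median brightness that lay above the floor on every array. The likeness is the Pearson correlation of log2 values, and since all 8 arrays share the treatments it is a description. Nearest to Il17ra were Tnc, the matrix glycoprotein tenascin C (0.996), Samsn1, an adaptor of blood cells (0.996), and Fgr, a Src-family kinase of myeloid cells (0.995). These rose by 2.41, 3.25 and 2.05 at 4 h and by 3.41, 4.14 and 3.58 at 24 h on the log2 scale.

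Nearest to Il17re, whose shikonin 24 h values were set to the floor, were Rab10, a small GTPase of vesicle traffic (0.997), Il1f5, the antagonist of the IL-36 receptor (0.994), and Col17a1, a collagen of hemidesmosomes (0.994). Their log2 changes at 24 h were -0.92, -4.29 and -2.10. For Il17rc the nearest genes were Rpl22, a ribosomal protein, Serpinf1, a secreted serpin, and Camsap2, which binds microtubule ends (0.997 each), with changes at 24 h of -1.32, -1.27 and -0.89. Traf3ip2 had Gdf10, a ligand of the TGF-beta superfamily (0.998), Cetn3, a centrin (0.997), and Rasgrp1, an activator of Ras (0.995). Il17rb, whose values rest largely on the floor, had Pbk (0.986), Prkar2b (0.981) and Vps45 (0.969), and the brighter Traf6 probe had Mgp (0.972), Rbm28 (0.969) and Ints11 (0.949).

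The ligands of these receptors were only partly measured. Of 8 IL-17 family ligands and upstream cytokines 3 had a value, and Il17a, Il17b, Il17d, Il25 and Il12b had none. Il17c, the ligand of the IL-17RA and IL-17RE pair, read 484 and 373 in acetone skin and 460 and 400 in shikonin skin at 4 h, and 412 and 338 against 756 and 447 at 24 h, where its change of 0.64 missed the threshold (SE 0.25, adjusted p = 0.0522). Il17f, a ligand of the IL-17RA and IL-17RC pair, lay between 221 and 509 on all arrays and passed at neither time. Il23a, a subunit of IL-23, which sustains IL-17 producing T cells, rose at 4 h (341 to 373 in acetone skin, 773 to 776 in shikonin skin, log2 1.12, SE 0.26, adjusted p = 0.0067) and gave 0.09 at 24 h (adjusted p = 0.787). So no IL-17 family ligand among those measured passed at either time, and Il17a and Il25 were among those not measured.

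Among the IL-20 subfamily ligands, 3 of 4 were measured (Il22 was not), and they split. Il24 read 329 and 320 in acetone skin and 5236 and 6349 in shikonin skin at 4 h, and 118 and 74.5 against 3172 and 3015 at 24 h, with log2 rises of 4.15 (adjusted p = 8.48e-08) and at least 3.93 (adjusted p = 3.42e-08). Il19 lay under the floor on all 4 acetone arrays (48.4 to 63) and read 933 and 1102 in shikonin skin at 4 h and 624 and 594 at 24 h, log2 rises of at least 2.32 and at least 1.58. Il20 gave -0.09 at 4 h (adjusted p = 0.645) and was lower at 24 h, at 797 and 778 in acetone skin and 137 and 110 in shikonin skin (log2 -1.95 or lower, adjusted p = 2.53e-06). The cytokines Il19 and Il24 were thus high in shikonin skin while the chains that bind them had no value on these arrays.

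Partner chains outside the set were measured for 5 of 9 genes, with 4 higher at 4 h (20.4% of all named genes), then 2 higher and 1 lower at 24 h (28.3% and 33.7% of all named genes). Il10rb, the second chain of the IL-22 and IL-10 receptors, read 3535 and 3367 in acetone skin and 5245 and 4810 in shikonin skin at 4 h, and 3236 and 4236 against 11924 and 10247 at 24 h. It rose at both times (log2 0.54, adjusted p = 0.0136, and 1.58, adjusted p = 1.28e-05), and more at 24 h (difference 1.04, SE 0.21, adjusted p = 0.00344). Il10ra, the IL-10 binding chain, rose by 1.60 and 1.75. Ifnlr1, which pairs with IL-10RB for interferon lambda, rose at 4 h (0.52) and fell at 24 h (-0.61), and Egfr, the EGF receptor, rose at 4 h only by the test (0.85, and 0.16 at 24 h, difference -0.69, adjusted p = 0.00679).

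Downstream of Act1 and TRAF6, 28 of 31 listed signal transducers were measured. At 4 h 9 rose and 5 fell, with a median log2 change of 0.09, and at 24 h 12 rose and 4 fell, with a median of 0.35. Among all named genes the shares were 20.4% higher and 26.5% lower at the first time, 28.3% and 33.7% at the second. Traf5, another TRAF adaptor of IL-17 receptor signaling, fell at both times (-1.08 and -1.11, adjusted p = 4.79e-05 and 1.72e-05). Mapk8, which encodes JNK1, fell too (-0.49 and -0.78). Higher were Cebpb, a transcription factor of IL-17 target promoters (1.88 and 1.71), Arid5a, which stabilises inflammatory mRNAs (2.14 at 4 h and at least 0.76 at 24 h), and Hsp90aa1, a chaperone that Act1 needs (0.71 and 2.12).

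Of the list grouped as feedback inhibitors of the pathway, 16 of 17 genes were measured. Of these, 5 were higher and 3 lower at 4 h (median 0.25), then 9 higher and 2 lower at 24 h (median 1.21), beside 20.4% and 26.5%, then 28.3% and 33.7%, of all named genes. The grouping is nominal. Nfkbiz, counted as higher at 24 h (1.58, adjusted p = 2.50e-04), is also in the list of IL-17 target genes, and an inhibitory role was not tested. Tnfaip3, which encodes the ubiquitin editing enzyme A20, rose by 2.20 and 3.07 (adjusted p = 2.39e-06 and 9.95e-08). Tnip1, a partner of A20, rose by 1.54 and 1.43. Usp18, a protease that is also induced by interferon, rose by 0.53 and 5.25. Phlpp1, a phosphatase, fell at both times (-0.76 and -0.79), Btrc, a ubiquitin ligase subunit, fell at 4 h (-0.73), and Anapc5 fell at 24 h (-0.37, adjusted p = 0.0233).

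The JAK-STAT genes below the IL-20 receptors, 9 of 12 measured, held 6 higher and 0 lower genes at 4 h (median 0.94), then 6 higher and 1 lower at 24 h (median 0.71). Of all named genes, 20.4% were higher and 26.5% lower at 4 h, then 28.3% and 33.7% at 24 h. Jak2 rose by 1.84 and 1.97. Socs3, a STAT3 target that limits JAK signals, rose by 2.28 and 3.27. Cish, another inhibitor of the SOCS family, rose at 4 h (1.75) and fell at 24 h (-0.40, adjusted p = 0.0252).

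Among genes that IL-17 is known to induce in keratinocytes, 25 of 27 were measured. The 4 h comparison called 20 higher and 1 lower (median 2.25), and the 24 h comparison 24 higher and 1 lower (median 4.05). The shares of all named genes were 20.4% higher and 26.5% lower at 4 h, then 28.3% and 33.7% at 24 h. Of the 25, 5 are also in another list, among them S100a8, S100a9 and Mmp9 of the neutrophil markers, and many are induced by other cytokines as well. The highest were Cxcl2 (at least 5.49) and Csf3 (at least 4.90) at 4 h and Cxcl5 (at least 8.33) and Cxcl2 (at least 7.89) at 24 h. The lower genes were Defb3 at 4 h (-1.34, adjusted p = 9.10e-04) and Ccl20 at 24 h (-1.46 or lower, adjusted p = 4.09e-05). In acetone skin 0 of the 25 were higher and 21 lower at 24 h than at 4 h (median -1.21), beside 15.8% and 14.6% of all named genes. The control level of this list thus differs between the times.

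Genes of the keratinocyte response to IL-20 and IL-22, 15 of 19 measured, went both ways, with 6 higher and 5 lower at 4 h (median 0.11), then 9 higher and 5 lower at 24 h (median 1.17), beside 20.4% and 26.5%, then 28.3% and 33.7%, of all named genes. Of these, 7 are also in another list. The highest were Il24, given above, and S100a7a, an S100 protein of inflamed epidermis, at 4 h (at least 2.50, and at least 0.83 at 24 h), and S100a9, which is also in the neutrophil list, at 24 h (5.95, and 2.25 at 4 h). Flg, which encodes the barrier protein filaggrin, fell at both times (-5.24, and -7.17 or lower), and Krt10, a keratin of differentiating cells, fell likewise (-2.97 or lower, and -6.37 or lower). Beside these lists, the receptor chains and adaptors had medians below 0 at both times (-0.29 and -0.66). The first rests in part on the Il17rb value that the floor fixed.

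**Figure D4:**
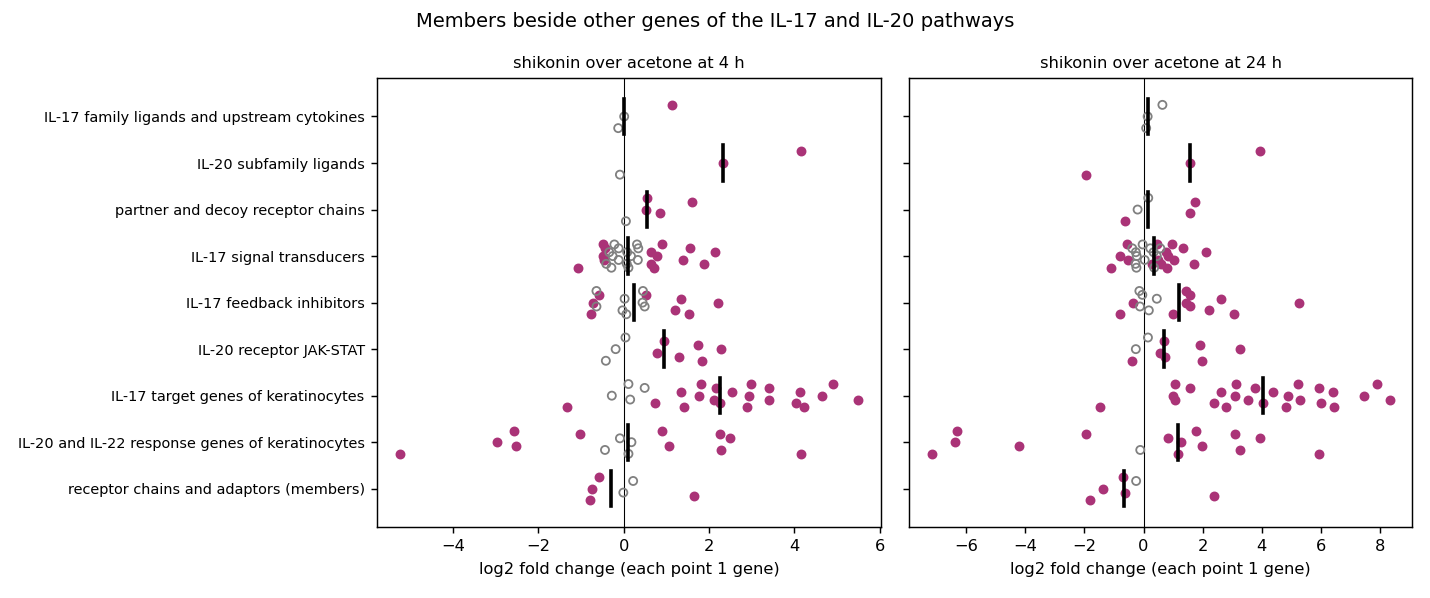
Log2 fold change of shikonin over acetone at 4 h and 24 h for each measured gene of the ligand, partner chain, transducer, inhibitor, JAK-STAT and target lists and for the 6 measured receptor chains and adaptors; each point is 1 gene, filled where adjusted p was under 0.05, and black bars are list medians. The target list has medians of 2.25 at 4 h and 4.05 at 24 h, and the IL-20 subfamily ligands 2.32 and 1.58. The receptor chains and adaptors have medians of -0.29 and -0.66, and values at the floor or at saturation are bounds. Il17rb at 4 h, drawn at -0.01, has no fold because both groups lay about at or under the floor, and the 4 h median of the set rests in part on it.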

How the data were processed

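Total RNA of abdominal skin was amplified, labelled with Cy5 and hybridized to the Mouse OneArray, 1 sample an array. Per the methods, spots were read with GenePix and present or absent calls were made in Spotfire. The authors deposited an intensity on a linear scale for each spot. The arrays have matching distributions, so they were already normalized. How this was done, how background was removed and why 16069 probes are blank is stated in none of the sources used here. Equal distributions hide a change in total RNA, so each change is relative to all probes.

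Of the 13853 probes measured on every array, 9712 had a current symbol, 1814 an older one that was replaced through RefSeq, 24 a symbol left as it was and 2303 none. Intensities were floored at 203.4 and put on the log2 scale. Each gene was represented by its brightest probe on average, and the other measured probe of Il17ra and of Traf6 is given beside it. Values of 65000 or above counted as saturated. One model of the 4 group means was fitted to all 8 arrays in R 4.3.3 with limma 3.58.1 (lmFit and a trended eBayes, 4 residual and 5.02 prior degrees of freedom). The script was tested on simulated data. The number of arrays limits the precision.

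The genes of the set, the pathway lists and the marker lists were chosen with earlier results of these data known. Every measured gene of the set is named, and from each pathway list examples are taken from the 2 highest and the 2 lowest genes that passed at either time. Motifs were searched as exact letters in RefSeq promoters. Figures were drawn with matplotlib 3.10.9. Alternatives covered normalization, floor, filters on dim probes, array weights, trend, replicate block, each array left out, each time alone, mean of probes, thresholds, pairings and controls of the other time. The dimmer probes of Il17ra and Traf6 and the marker sums without saturated probes were added after seeing the data.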

Additional observations from a re-analysis of the deposited data

Results flagged for a closer look

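The effect of shikonin differed between 4 h and 24 h for 3 of the 6 measured genes, by the test of that difference in limma. The same test called 21.7% of all named genes higher and 22.8% lower, so such differences were common on these arrays. For Il17ra the rise was larger at 24 h by 0.72 on the log2 scale (SE 0.20, adjusted p = 0.0159), which its second probe did not show (-0.24, adjusted p = 0.351). For Il17rb the difference was -0.67 (SE 0.19, adjusted p = 0.0172), and it was -0.18 (adjusted p = 0.675) with no floor on low intensities. For Il17rc it was -1.05 (SE 0.21, adjusted p = 0.00318), and it passed under all 22 alternatives.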

How the results depend on the processing

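Of 674 values of single genes under the alternatives, 609 stayed on their side of the threshold without turning direction, 40 no longer passed, 13 newly passed and 12 turned direction. With the dimmer probe these were Il17ra between the acetone groups (0.06), between the shikonin groups (-0.17) and in the difference between the times (-0.24), and Traf6 at 24 h (0.76) and between the acetone groups (0.13). With the mean of probes they were Il17ra between the shikonin groups (-0.01), and Traf6 at 24 h (0.25) and between the acetone groups (0.04). The Il17re difference between the times became 0.04 with the 25% floor. Between the acetone groups, Il17re became 0.01 without acetone 4 h replicate 2 and 0.07 without acetone 24 h replicate 1 (range -0.16 to 0.07 over the arrays left out), and Traf6 became 0.11 without acetone 24 h replicate 2 (range -0.20 to 0.11). The cause was not tested. Of the 12, only Traf6 at 24 h with the dimmer probe passed, and in the main setting only Il17ra between the acetone groups and in the difference had passed. Il17ra at both times kept its call under all 25 alternatives, and Il17rc at 24 h under all 24.

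The count of genes called at 24 h was 5 and became 3 with the floor at the 25% level, 3 in the upper 75% and 3 in the upper 50% of probes by mean, which test only 4 of the genes, and 3 with a 2-fold minimum. At 4 h the count was 4 and became 1 with that minimum. In the difference of effects 3 became 1 at an adjusted p threshold of 0.01 and 1 with the 2-fold minimum, and between the shikonin groups 3 became 0 with that minimum. Between the acetone groups 2 became 1 with the 25% floor, with either filter on dim probes, with the mean of all probes and at 0.01, and 0 with the 2-fold minimum. Leaving out each array gave 1 to 2 there, 2 to 4 in the difference, 2 to 3 between the shikonin groups, 4 at 4 h and 5 at 24 h. The 4 h count by the 2-fold criterion was 1, and it was 2 at 1.5-fold and 0 at 3-fold.

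Same-numbered arrays of different groups deviated together with correlations of -0.21 to 0.21, so the numbers were not taken as pairs. With the replicate block, Il17re passed in the difference of effects (-0.58, adjusted p = 0.0461), which made that count 4, and no other call changed. Traf6 passed at 4 h with the mean of its probes (0.59, adjusted p = 0.00582). With 2 arrays a group and dim Il17rb and Il17re probes, small changes and values near the floor cannot be resolved.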
